A study of Mus musculus with 4 samples.

Results

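The SLCO genes encode organic anion transporting polypeptides, and 5 of them are described here: Slco1a1, Slco1a6, Slco2a1, Slco3a1 and Slco4c1. They were chosen by gene symbol, with no measured value in the rule, and all 5 are among the 24468 genes of the table of 17 kidney cell clusters and the 21312 genes of the proximal tubule table. The study profiled single nuclei from the kidneys of male C57BL/6 mice, taken as cortex with outer medulla. Mice of the group Cis9w were injected with cisplatin, a platinum drug for tumours that is toxic to tubule cells, at 8 mg/kg once a week for 4 weeks. Collection of the kidneys was 9 weeks from the first dose. The other group, CT9w, was untreated. Each group has 2 samples by the labels. The sources used here do not give the age of the mice or the number of mice behind a sample.

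Organic anion transporting polypeptides are membrane proteins that carry large amphipathic anions into cells, among them conjugated steroids, bile acids, thyroid hormones, prostaglandins and many drugs. The proximal tubule, which is divided along its length into segments S1, S2 and S3, secretes such anions from blood to urine with these carriers, the SLC22 uptake transporters and the ABC efflux pumps. In rodents the Slco1a genes form a cluster of closely related copies, and Slco1a1 is known for higher expression in male than in female kidney. Slco2a1 is the prostaglandin transporter, Slco3a1 is widely expressed, and Slco4c1 carries digoxin and thyroid hormone.

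RNA was counted as unique molecular identifiers (UMIs), and each deposited value is an average over a pool of nuclei, in normalised UMIs per nucleus. The proximal tubule table has 1 pool for CT9w, with 5123727 UMIs, and 1 for Cis9w, with 8557662. The 17 clusters hold 254460 to 7425098 UMIs each and pool both groups, so differences between clusters and between groups cannot be told apart in that table. No column names a sample, so the spread between mice is not known and no test across samples could be run. Whether 1 sample or both per group entered the proximal tubule pools is not known. The 95% intervals given below cover counting error only, and the p-values are those of the authors' deposited table. A pooled average also cannot separate fewer nuclei with the RNA from less RNA per nucleus. Each cell type marker list had its highest summed level in the cluster whose name it fits. The fibroblast and mural cell list, which has no cluster of its own name, was highest in Mixed-1 (3.09), and mixed-2 held proximal tubule markers at a summed level of 15.6.

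In proximal tubule nuclei, 1 of the 5 genes passed the deposited test between the groups. Slco1a1 fell, while the p-values of the other 4 genes were above 0.05. Of all 21298 gene symbols in that table, 2.13% had a deposited p under 0.05 in either direction and 1.14% were called lower in Cis9w. All 5 genes reached the median expression level of the table (0.0154 normalised UMIs per nucleus), and of the 10650 genes at that level 3.3% were called. On the other side of the comparison, a gene next to Slco1a1, Gm6614, was called higher. It is no member of the set and was singled out after its values were seen, because it is a copy of the same gene family that lies between Slco1a1 and Slco1a6.

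Slco1a1, Gm6614 and Slco1a6 stand in a row on the minus strand of chromosome 6 in GRCm38 (GENCODE M21). Slco1a1 covers chr6:141907282-141946962, Gm6614 chr6:141971845-142011414 and Slco1a6 chr6:142085761-142208521. The gap from Slco1a1 to Gm6614 is 24.9 kb and that from Gm6614 to Slco1a6 is 74.3 kb. Slco1a4 lies 51.1 kb beyond Slco1a1, and Slco1a5 lies 25.7 kb beyond Slco1a6. The promoter windows of the 3 neighbours are shown because these genes differed between the groups in opposite directions or by different amounts. They run from 250 bases before to 50 bases from the start site, come from RefSeq (GRCm38.p6), are written 5′ to 3′ on the minus strand, and have motif matches in capitals. The windows are chr6:141946913-141947212 for Slco1a1, chr6:142008696-142008995 for Gm6614 and chr6:142186100-142186399 for Slco1a6. For the last 2 genes the RefSeq start lies inside the GENCODE gene.
Slco1a1: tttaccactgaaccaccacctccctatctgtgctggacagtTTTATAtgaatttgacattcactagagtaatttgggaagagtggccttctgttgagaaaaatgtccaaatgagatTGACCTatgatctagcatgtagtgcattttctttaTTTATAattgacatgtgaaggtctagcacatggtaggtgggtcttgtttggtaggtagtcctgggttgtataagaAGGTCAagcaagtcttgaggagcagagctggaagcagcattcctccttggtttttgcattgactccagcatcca
Gm6614: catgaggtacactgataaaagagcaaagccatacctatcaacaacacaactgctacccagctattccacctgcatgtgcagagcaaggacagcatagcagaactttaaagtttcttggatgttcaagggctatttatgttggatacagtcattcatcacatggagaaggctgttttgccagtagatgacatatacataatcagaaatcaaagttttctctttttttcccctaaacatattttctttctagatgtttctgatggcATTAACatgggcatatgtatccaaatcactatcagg
Slco1a6: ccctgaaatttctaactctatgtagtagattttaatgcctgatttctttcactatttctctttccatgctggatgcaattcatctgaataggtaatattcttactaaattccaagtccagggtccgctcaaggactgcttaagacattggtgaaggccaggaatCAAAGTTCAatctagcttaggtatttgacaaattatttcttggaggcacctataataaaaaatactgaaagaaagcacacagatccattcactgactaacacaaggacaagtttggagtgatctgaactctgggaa

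The motifs searched, on both strands, were AGGTCA (a nuclear receptor motif), TGTTCT (a steroid receptor motif), GTTAAT (an HNF1 motif), CAAAGTNCA (an HNF4 motif), TTCNNNGAA (a STAT motif) and TATAAA (the core promoter box). None of the matches in these windows overlap. The Slco1a1 window held AGGTCA at positions -134 (as TGACCT, the other strand) and -24, counted from the start site, and the reverse of TATAAA at -209 and -99. The Gm6614 window held the reverse of GTTAAT at position 15, and the Slco1a6 window held CAAAGTTCA, a match to CAAAGTNCA, at -86. Among 32851 windows of the same length, 16.3% held AGGTCA, 13.6% TATAAA, 7.10% GTTAAT and 1.41% CAAAGTNCA. TGTTCT (19.0% of windows) and TTCNNNGAA (8.30%) had no match in the 3 windows. A match is only a description of the letters in the window.

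Slco1a1 encodes the transporter Oatp1a1. The CT9w pool had 690 UMIs of Slco1a1, an average of 0.377 normalised UMIs per nucleus (interval 0.349 to 0.406). The Cis9w pool had 43 UMIs, an average of 0.0141 (0.0102 to 0.0189), although it was the larger pool. The intervals of the 2 pools are far apart. Slco1a1 was 26.8-fold lower in Cis9w (interval of the ratio 19.7 to 37.4). The authors' deposited table lists it at -4.71 (log2 fold change) with p = 5.72e-38, the third lowest value among the genes at the median level. Over the same pools the 10 proximal tubule markers summed to 45.8 in CT9w and 42.1 in Cis9w, with 5 higher and 1 called. The called marker was Slc7a13, an amino acid carrier, which was 3.49-fold lower (3.35 to 3.63) with p = 6.62e-10 in the authors' deposited table. Among the clusters Slc7a13 averaged 0.0567 in PT-S1, 0.181 in PT-S2, 2.21 in PT-S2/S3, 4.797 in PT-S3-1 and 5.08 in PT-S3-2. The part of these markers and of the tubule segments in the Slco1a1 values was not tested.

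Gm6614 moved the other way. The CT9w pool had 56 UMIs of Gm6614, an average of 0.0306, and the Cis9w pool had 575, an average of 0.188. The level was 6.15-fold higher in Cis9w (4.67 to 8.24). The authors' deposited table lists Gm6614 at 2.60 (log2 fold change) with p = 3.62e-10, the 29th highest value at the median level. Of all gene symbols, 0.995% were called higher in Cis9w. The 2 genes together had 746 UMIs in CT9w and 618 in Cis9w, and their summed average was 0.496 of the untreated level (0.445 to 0.553).

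Slco1a6 encodes another transporter of the same branch. Its average was 5.20 in CT9w (9531 UMIs) and 3.62 in Cis9w (11078 UMIs). The ratio of Cis9w to CT9w was 0.696 (0.677 to 0.715). The authors' deposited table lists Slco1a6 at -0.52 (log2 fold change) with p = 0.506, so the difference was larger than counting error and did not pass the deposited test.

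Slco2a1 carries prostaglandins into cells. It had 140 UMIs in CT9w and 302 in Cis9w, averages of 0.0764 and 0.0987. The ratio was 1.29 (1.05 to 1.59), and the authors' deposited table lists it at 0.36 (log2 fold change) with p = 1. Marker lists of several other cell types were higher in the Cis9w pool and some were lower, whether or not those cells hold Slco2a1. The summed level of the 7 injured proximal tubule markers was 0.300 in CT9w and 1.09 in Cis9w, with all 7 higher, 6 of them called, and Krt20 and Sox9 at 0 UMIs in CT9w. The 8 endothelial markers summed to 0.192 and 0.289, with 7 higher and 0 called by the deposited test, and the 5 podocyte markers summed to 0.0519 and 0.0961, with 5 higher and 0 called. Of cell types with few Slco2a1 UMIs, intercalated cell markers summed to 0.0502 and 0.119 (5 of 5 higher, 0 called), principal cell markers to 0.0382 and 0.0804 (5 of 5 higher, 1 called) and connecting tubule markers to 0.803 and 1.43 (3 of 4 higher, 1 called). Fibroblast and mural cell markers summed to 0.0169 and 0.0245 (6 of 7 higher, 0 called). The summed level of thick ascending limb markers was lower in Cis9w (2.94 and 2.81), although 3 of 5 members were higher. It was lower for distal convoluted tubule markers (0.630 and 0.604, 2 of 4 higher) and immune cell markers (0.113 and 0.0820, 4 of 6 higher). In these lists 0 members were called. Not every member is specific to its cell type. Cldn10, a thick ascending limb marker, was 1.71 in PT-S2 and 0.330 in TAL. Csf1r, an immune cell marker, had 377 UMIs in PT-S3-2 and 99 in Immune cells. The part of these cells in the Slco2a1 values was not tested.

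Slco3a1 had 4386 UMIs in CT9w and 4242 in Cis9w, averages of 2.39 and 1.39. The ratio was 0.579 (0.555 to 0.604). Of the 4 genes that were not called it had the lowest p in the authors' deposited table, 0.0662, at a log2 fold change of -0.79. Slco4c1 had 243 and 314 UMIs, averages of 0.133 and 0.103, and a ratio of 0.774 (0.652 to 0.919). The authors' deposited table lists it at -0.37 (log2 fold change) with p = 1.

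**Figure D1:**
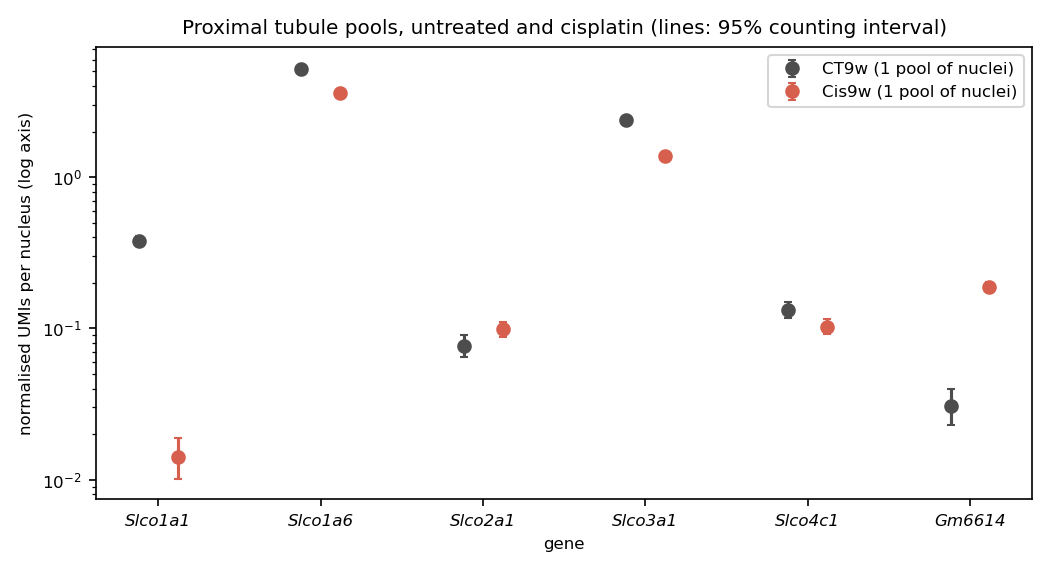
Average level (normalised UMIs per nucleus, log axis) of the 5 SLCO genes and Gm6614 in the proximal tubule pools of CT9w (grey) and Cis9w (red); lines are 95% counting intervals, hidden where they are smaller than the point. Slco1a1 goes from 0.377 to 0.0141 and Gm6614 from 0.0306 to 0.188, while the other genes lie closer together.

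The remaining family members had few UMIs in the proximal tubule pools. The table holds 6 of them, none at the median level and none called. Slco2b1 went from 31 UMIs to 24, with a ratio of 0.464 (0.260 to 0.816), with p = 0.416 in the authors' deposited table. Slco1a4, the nearest gene on the other side of Slco1a1, had 8 and 3, a ratio of 0.225 (0.0384 to 0.935) with p = 0.484 in the authors' deposited table. Slco4a1 had 13 and 15, Slco5a1 had 1 and 8, and Slco1a5 and Slco1b2 had 1 UMI each over both pools.

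The Slco1a copies are alike in sequence, so UMIs could be placed on the wrong copy. The coding sequences of Slco1a1 and Gm6614 are 86.1% identical, those of Slco1a1 and Slco1a6 84.9%, and those of Gm6614 and Slco1a6 84.7%. Over whole transcripts, untranslated ends included, the longest exact stretches shared by these pairs were 96, 96 and 157 bases. The sources used here do not say how reads shared by such copies were counted, and the part of misplaced reads in the 3 genes' values was not tested.

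Within proximal tubule nuclei, the ratio of Slco1a1 to its neighbour Slco1a6 does not depend on how a pool is scaled. There were 7.24 Slco1a1 UMIs per 100 Slco1a6 UMIs in CT9w (6.69 to 7.82) and 0.388 in Cis9w (0.281 to 0.523). For Gm6614 there were 0.588 per 100 in CT9w (0.443 to 0.764) and 5.19 in Cis9w (4.76 to 5.64). The groups stood in opposite order for the 2 genes, of which Gm6614 was singled out after its values were seen. These intervals cover counting error only. In pools of this depth, the Cis9w to CT9w ratio intervals of the 4 SLCO genes not called also excluded 1.

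Along the tubule, the clusters showed the same 2 genes apart from each other. Slco1a1 per 100 Slco1a6 UMIs was 0.555 in PT-S1 and 0.348 in PT-S2, then 6.52 in PT-S2/S3, 5.21 in PT-S3-1 and 1.70 in PT-S3-2. Gm6614 per 100 Slco1a6 UMIs was 0.287 in PT-S1, 0.348 in PT-S2, 1.74 in PT-S2/S3, 3.24 in PT-S3-1 and 9.50 in PT-S3-2 (8.78 to 10.3). Both genes were scarce in the first 2 clusters, and the highest cluster was PT-S2/S3 for Slco1a1 and PT-S3-2 for Gm6614. Over the 11 clusters outside the proximal tubule as 1 pool, Slco1a1 stood at 6.48 per 100 (5.03 to 8.25) and Gm6614 at 3.11 (2.14 to 4.37).

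**Figure D2:**
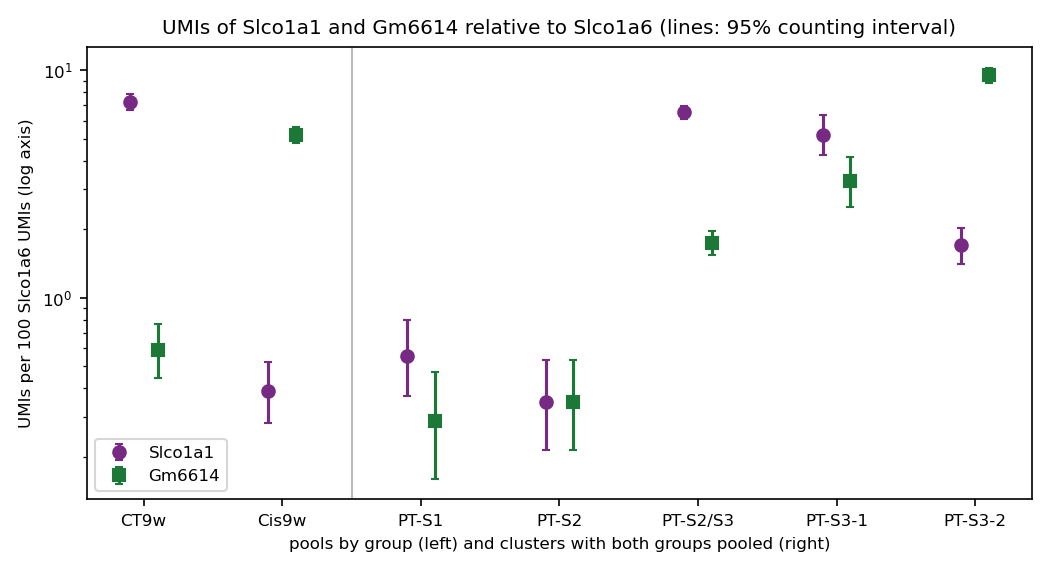
UMIs of Slco1a1 (circles) and Gm6614 (squares) per 100 UMIs of Slco1a6 (log axis) in the 2 proximal tubule pools and in the 5 tubule segment clusters, which hold both groups; lines are 95% counting intervals. Slco1a1 goes from 7.24 to 0.388 between CT9w and Cis9w and Gm6614 from 0.588 to 5.19, and among the clusters Slco1a1 is highest in PT-S2/S3 and Gm6614 in PT-S3-2.

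The averages of Slco1a1 by cluster were 0.0107 in PT-S1 (29 UMIs), 0.00986 in PT-S2 (21), 0.272 in PT-S2/S3 (1005), 0.159 in PT-S3-1 (106) and 0.0681 in PT-S3-2 (124). PT-S2/S3 held 73.4% of the 1369 Slco1a1 UMIs in the 17 clusters. The level in PT-S2/S3 was 27.6-fold that in PT-S2 (17.9 to 44.7) and 1.70-fold that in PT-S3-1 (1.39 to 2.10). PT-injury/repair, the cluster named for injured tubule, had 0.0159 (13 UMIs). Outside the proximal tubule Slco1a1 was 0.158 in mixed-2 (20 UMIs), 0.0374 in Podocyte, 0.0276 in Immune cells and at most 0.0151 elsewhere, with 0 UMIs in EC1, which allows up to 0.00977 at 3 UMIs. Of the 16 pairs of neighbours in the order of clusters, 13 had a ratio interval that included 1.

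Slco1a6 was present in all 5 segment clusters. Its averages were 1.94 in PT-S1, 2.83 in PT-S2, 4.17 in PT-S2/S3, 3.06 in PT-S3-1 and 4.01 in PT-S3-2. The 6 proximal tubule clusters held 97.1% of its 37322 UMIs. The exception among them was PT-injury/repair, where Slco1a6 was 0.267 (219 UMIs), so that PT-S1 stood 7.24-fold above it (6.32 to 8.32) and PT-S2/S3 15.6-fold (13.6 to 17.9). Proximal tubule markers summed to 4.59 in PT-injury/repair and to 22.9 to 42.9 in the other 5.

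Outside the proximal tubule, Slco1a6 was 1.60 in mixed-2, 0.808 in Podocyte, 0.381 in Immune cells and 0.283 in EC1. The other 7 clusters had 0.136 in IC-A/IC-B, 0.116 in EC2, 0.114 in Mixed-1, 0.0862 in CNT, 0.0835 in TAL, 0.0795 in PC and 0.0635 in DCT+CNT. The proximal tubule markers summed to 15.6 in mixed-2, 7.95 in Podocyte, 6.27 in Immune cells, 4.03 in EC1 and 1.39 to 2.27 in the other 7. Slco1a6 was 4.21% to 10.3% of that sum in the 11 clusters and 4.51% to 17.5% in the 6 proximal tubule clusters. The part of proximal tubule RNA in the Slco1a6 levels of the 11 clusters was not tested. In this order of clusters, 8 of 16 neighbour pairs had a ratio interval that included 1.

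Slco2a1 was spread over more cell types. It was highest in Mixed-1 at 0.389 (174 UMIs), followed by EC1 at 0.280 (86), Podocyte at 0.268 (86), PT-injury/repair at 0.260 (213), EC2 at 0.209 (97) and mixed-2 at 0.205 (26). Mixed-1 was 1.39-fold above EC1 (1.07 to 1.82), and EC1 did not differ from EC2 beyond counting error (1.34, 0.991 to 1.81). EC1 and EC2 are the endothelial clusters. In the distal nephron Slco2a1 was 0.0725 in TAL (105 UMIs) and had 7 UMIs in DCT+CNT, 5 in IC-A/IC-B, 1 in CNT and 1 in PC. The averages of these 4 clusters were 0.00617, 0.00695, 0.00221 and 0.00189. EC1 stood 45.4-fold above DCT+CNT (21.1 to 116). Immune cells had 2 UMIs, an average of 0.0111.

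Among the proximal tubule clusters, Slco2a1 was 0.0382 in PT-S1, 0.0277 in PT-S2, 0.0354 in PT-S2/S3, 0.0857 in PT-S3-1 and 0.142 in PT-S3-2. PT-injury/repair was 9.39-fold above PT-S2 (7.01 to 12.8) and 1.84-fold above PT-S3-2 (1.52 to 2.21). The level in PT-injury/repair was near that in EC1 (ratio of EC1 to it 1.08, 0.829 to 1.39). The endothelial markers summed to 0.545 in PT-injury/repair, 18.4 in EC1, 24.6 in EC2 and 0.122 to 0.614 in the other 5 proximal tubule clusters. In PT-injury/repair, podocyte markers summed to 0.205 and fibroblast and mural cell markers to 0.0708. In Podocyte those endothelial markers summed to 1.69, and podocyte markers to 15.1. The part of other cell types in the Slco2a1 level of each cluster was not tested. Of the 16 neighbour pairs, 13 had a ratio interval that included 1.

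Slco3a1, a carrier of prostaglandins and other anions, had at least 82 UMIs in every cluster. It was 2.23 in PT-S3-2, 1.79 in PT-S2/S3, 1.77 in PT-S3-1, 1.37 in EC2, 1.33 in Mixed-1 and 1.25 in mixed-2. Next came DCT+CNT and TAL, both at 1.04, EC1 at 1.01, PT-injury/repair at 0.988, PC at 0.980, PT-S2 at 0.932, Immune cells at 0.812, CNT at 0.526 and Podocyte at 0.471. PT-S1 at 0.127 (343 UMIs) and IC-A/IC-B at 0.114 (82 UMIs) were the low end. Slco3a1 was low in the first tubule segment, where PT-S3-2 stood 17.5-fold above PT-S1 (15.7 to 19.6) and PT-S2 7.33-fold (6.54 to 8.25). In the collecting duct, PC was 8.59-fold above IC-A/IC-B (6.80 to 10.99). Of the 16 neighbour pairs, 11 had an interval that included 1.

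Slco4c1 was centred on the S3 clusters. It was 0.485 in PT-S3-2 (884 UMIs) and 0.254 in PT-S3-1 (169 UMIs), and 68.9% of its 1283 UMIs were in PT-S3-2. Its level in PT-S1 was 0.00259 (7 UMIs), in PT-S2 0.00235 (5) and in PT-S2/S3 0.0151 (56). PT-S3-2 was 187-fold above PT-S1 (90.4 to 467) and 32.0-fold above PT-S2/S3 (24.4 to 42.8). PT-injury/repair had 0.0269 (22 UMIs).

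Principal cells of the collecting duct (PC) were the third cluster for Slco4c1, at 0.153 (81 UMIs). This was 23.1-fold above CNT (7.63 to 114, with 3 UMIs in CNT), 6.48-fold above IC-A/IC-B (3.81 to 11.7) and 10.1-fold above PT-S2/S3 (7.11 to 14.5). The proximal tubule markers summed to 1.39 in PC. In Podocyte and mixed-2 they summed to 7.95 and 15.6, and Slco4c1 was 0.0374 (12 UMIs) and 0.0395 (5 UMIs) there. The part of proximal tubule RNA in these Slco4c1 levels was not tested. The remaining clusters had 0.0236 in IC-A/IC-B, 0.0221 in Immune cells, 0.0130 in EC1 and at most 0.00663 in CNT, EC2, TAL, DCT+CNT and Mixed-1. Of the 16 neighbour pairs, 13 had an interval that included 1.

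**Figure D3:**
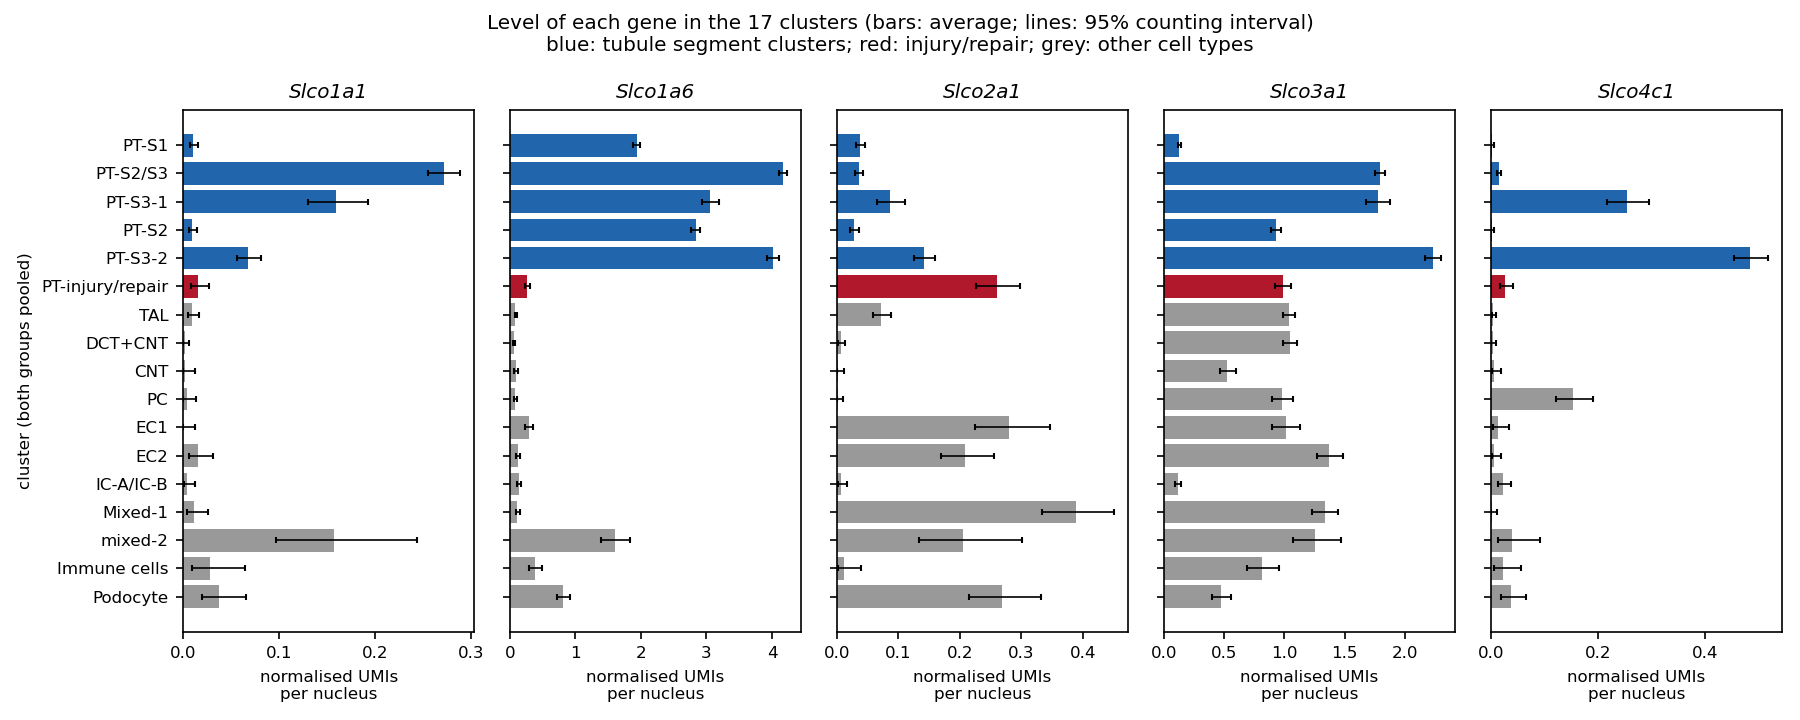
Average level (normalised UMIs per nucleus, one scale per panel) of each SLCO gene in the 17 clusters, with 95% counting intervals; blue marks the 5 tubule segment clusters, red PT-injury/repair and grey the other clusters. Slco1a1 is highest in PT-S2/S3 (0.272), Slco2a1 in Mixed-1 (0.389) and Slco4c1 in PT-S3-2 (0.485) with a smaller level in PC (0.153), while Slco3a1 is low in PT-S1 (0.127).

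**Figure D4:**
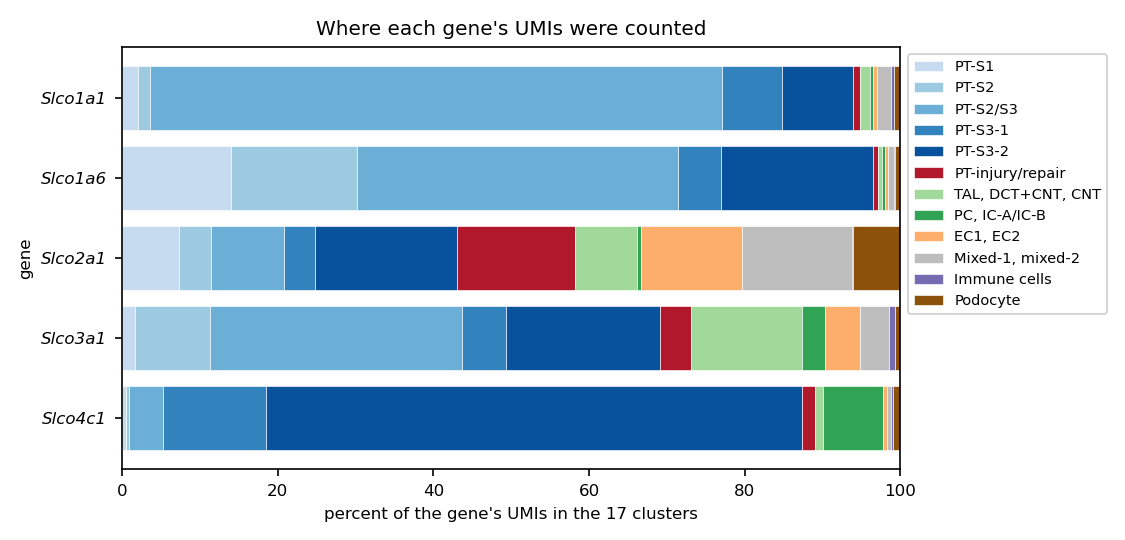
Percent of each SLCO gene's UMIs in the 17 clusters, by cluster or group of clusters. The 6 proximal tubule clusters hold 94.8% of Slco1a1, 97.1% of Slco1a6, 58.2% of Slco2a1, 73.1% of Slco3a1 and 89.1% of Slco4c1; these shares depend on how many nuclei each cluster has.

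Other SLCO genes had their own sites. Slco2b1 was highest in Mixed-1 at 1.29 (575 UMIs), followed by mixed-2 at 0.426 and Immune cells at 0.359. Slco1a4, known from blood-brain barrier endothelium, was 0.140 in EC2 and 0.104 in EC1 and at most 0.0134 elsewhere. Slco4a1 was highest in TAL at 0.0815. Slco5a1 had 16 UMIs in all, 12 of them in PT-injury/repair. Slco1c1 and Slco1b2 had 4 UMIs each, Slco1a5 had 2, and Slco6c1 and Slco6d1 had 1 each.

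The genes most like each SLCO gene over the 17 clusters were ranked by Pearson r of log2(average + 0.01), among 7661 genes with a cluster average of at least 0.1. The clusters share libraries and differ in depth, so r is a description. For Slco1a1 the 3 closest were Vmn1r20 (r = 0.881), Nudt19 (0.878) and Alk (0.877). In the authors' deposited table Vmn1r20 fell in proximal tubule (log2 fold change -1.63, p = 1.03e-07), as did Alk (-1.51, p = 2.4e-06 there), and Nudt19 had -0.77 with p = 0.100. For Slco1a6 they were Slc17a3, Gm19950 and Acsm1 (all r = 0.994), none called. For Slco2a1 they were Ston1 (0.877), Mpdz (0.874) and Sept11 (0.861). For Slco3a1 they were Mplkip (0.757), Gm7580 (0.755) and Ywhaz (0.726), the lowest values of the 5 genes. For Slco4c1 they were Higd1c (0.910), Gfra1 (0.858) and Itfg1 (0.856). Between the 5 genes themselves r was 0.749 for Slco1a1 with Slco1a6 and 0.06 to 0.47 for the other pairs.

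The carriers that work beside the SLCO proteins were compared in the same pools. Of 9 organic anion uptake genes of the SLC22 family, all at the median level, 4 fell and 0 rose (1.14% and 0.995% of all genes), with a median deposited log2 fold change of -0.56 against 0.03 over all genes at that level. The 4 were Slc22a7 (4.75-fold lower, 3.14 to 7.35), Slc22a19 (3.70-fold, 3.06 to 4.49), Slc22a13 (2.17-fold, 1.73 to 2.73) and Slc22a30 (1.92-fold, 1.84 to 2.00), with p = 4.92e-06, 2.64e-07, 0.0194 and 0.0112 in the authors' deposited table. Among the clusters, Slc22a7 averaged 0.00185 in PT-S1 and 0.110 in PT-S3-1. Slc22a19 had 0.00222 in PT-S1 and 0.402 in PT-S3-2, and Slc22a13 had 0.00222 and 0.218 there. Slc22a30 was more widely spread, at 0.641 in PT-S1 and 2.01 in PT-S2/S3. The part of the tubule segments in these falls was not tested. The 2 classical basolateral uptake carriers were not among the 4 called genes. Slc22a6 (Oat1) had a ratio of 1.14 (1.03 to 1.25, p = 1 in the authors' deposited table) and Slc22a8 (Oat3) 1.57 (1.46 to 1.68, p = 0.304 in the same table). Slc22a22, a prostaglandin-specific carrier, had 0.689 (0.620 to 0.765, p = 0.506 in the authors' deposited table).

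Of 12 efflux genes, 3 rose and 0 fell, where 0.995% of all genes were called higher and 1.14% lower. Abcb1a and Abcb1b, which are on this list, are not organic anion pumps. Abcc4 was 2.25-fold higher in Cis9w (2.11 to 2.40, p = 0.00168 in the authors' deposited table) and Abcb1b 2.51-fold (1.81 to 3.56, p = 0.0220). Abcc3, below the median level, went from 4 to 63 UMIs (ratio 9.43, 3.51 to 35.7, p = 0.000343 in the authors' deposited table). Abcc2, the apical pump, had a ratio of 1.03 (0.998 to 1.06, p = 1 in the authors' deposited table). The median deposited log2 fold change of the 11 efflux genes at the median level was 0.20. No gene was called among 14 prostaglandin genes (5 at the median level), 8 thyroid hormone genes (6), 4 bile acid transport genes (4) and 18 regulators and scaffolds (16). With 2.13% of all genes and 3.3% of those at the median level called, these counts of 0 are near the background. Hpgd, which inactivates prostaglandins, had 19 and 26 UMIs. The scaffold Pdzk1, which binds the tail of Oatp1a1, had a ratio of 0.943 (0.911 to 0.975).

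**Figure D5:**
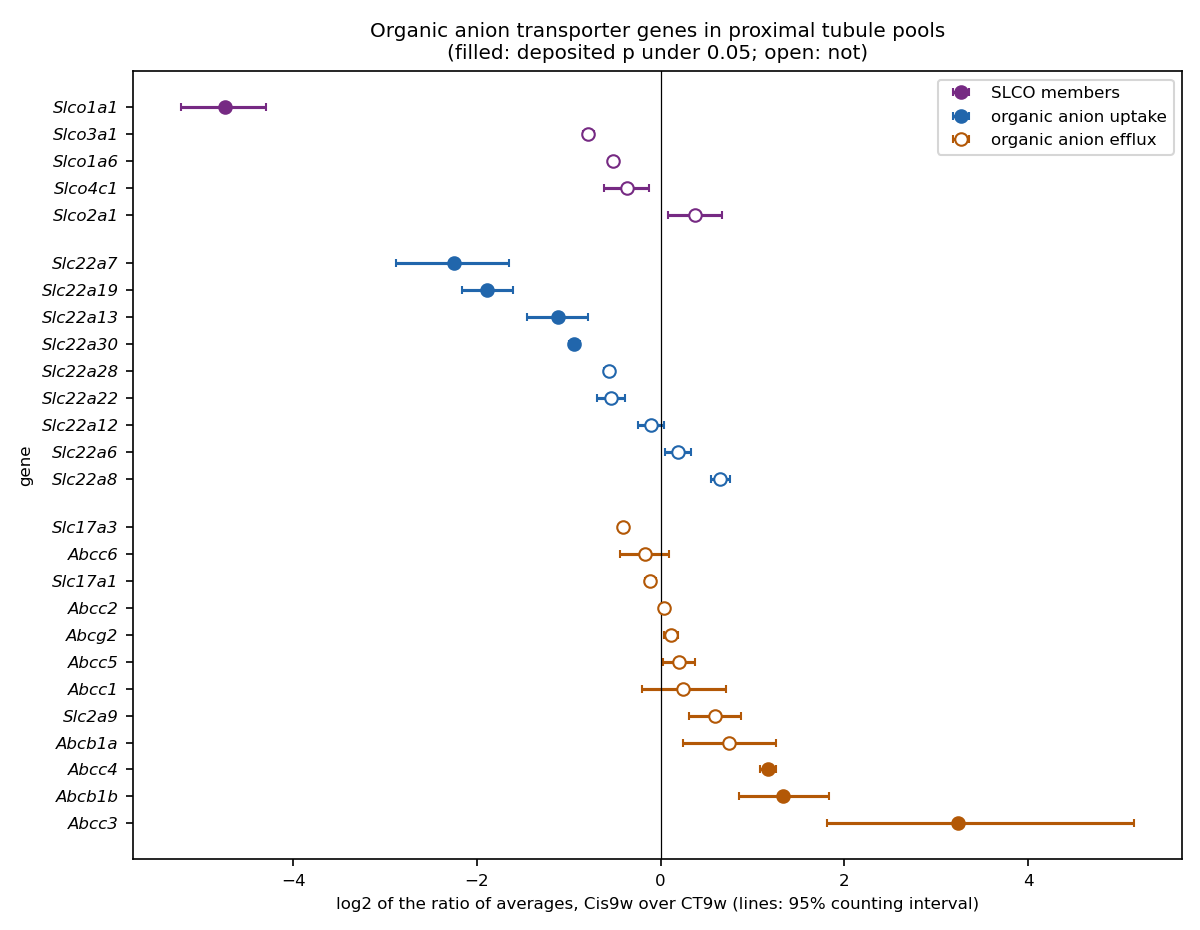
Log2 of the ratio of averages, Cis9w over CT9w, in proximal tubule pools for the 5 SLCO genes (purple), 9 organic anion uptake genes (blue) and 12 efflux genes (orange, labelled organic anion efflux), with 95% counting intervals; filled points have a deposited p under 0.05. Slco1a1 lies farthest to the left, 4 uptake genes are filled on the left and 3 efflux genes on the right.

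Because Slco1a1 is known as a male-biased gene, genes of known sex bias in mouse kidney were set beside it. Of all genes, 1.14% were called lower and 0.995% higher in Cis9w. Of 9 male-biased genes 8 fell, with a median deposited log2 fold change of -1.80. The largest were Cyp7b1, a steroid hydroxylase (6.27-fold lower, 5.88 to 6.69), Acsm3 (3.99-fold, 3.55 to 4.50) and Cyp4a12a (3.89-fold, 2.76 to 5.55). Slc22a30 is on this list and on that of uptake genes, and Slc7a13 is on this list and among the proximal tubule markers. All 3 female-biased genes rose: the prolactin receptor Prlr by 6.34-fold (5.49 to 7.35), Slc7a12 by 5.93-fold (5.18 to 6.80) and Cyp4a14 by 5.85-fold (4.22 to 8.32). This list was drawn up with these changes already known, so its direction is not independent evidence.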

How the data were processed

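Nuclei of kidney cortex with outer medulla were run on a droplet 3′ assay, per the labels' protocols. The submitters' processing notes name Cell Ranger 5.0.1 and mm10, the same assembly as GRCm38. The sources used here do not give the filters on nuclei, the clustering, the treatment of doublets and free RNA, or the test behind the p-values.

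Per the file headers, each gene has a deposited log2 fold change, a deposited p-value and a deposited average, which is a signal in normalised UMIs per nucleus. The fold changes of the cluster table compare each cluster with all other nuclei and are not reported. Levels were compared only within a table, since each was scaled on its own. The labels name the proximal tubule table under replicate 1 of each group and the cluster table under replicate 2. They do not say whether 1 or 2 libraries per group entered either. The proximal tubule table held 733 Slco1a1 UMIs, 56.5% of the 1298 in the proximal tubule clusters, PT-injury/repair included. Among the SLCO genes described here and Gm6614, this share ran from 48.7% (Slco4c1) to 59.0% (Gm6614). The proximal tubule pools thus held only part of these genes' UMIs in those clusters. Which nuclei or libraries the pools leave out was not tested. Of the IDs, 21288 of 21312 and 24432 of 24468 matched GENCODE M21. Where a symbol stood for several IDs (14 and 16 symbols) the first was used.

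Every average was turned back into a sum of UMIs, as a whole multiple of 1 step (99.995% or more of the values in each column came out whole, with a tolerance of 0.1 UMI). Ratios were given 95% Clopper-Pearson intervals and levels exact Poisson intervals. With a count of 0, the level of 3 UMIs is the limit, 0.00164 in CT9w, 0.000981 in Cis9w and 0.000811 to 0.0237 in the clusters. A gene was called at a deposited p under 0.05, and the median level was taken over genes, from each gene's mean of the CT9w and Cis9w averages. The recovery and the intervals were tested on Poisson counts simulated from the averages of the proximal tubule pools. Those counts have no spread between nuclei or mice, so that check covers counting error only. Coding sequences were aligned with Biopython 1.88, and intervals were computed with SciPy 1.17.1.

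The genes named were all SLCO genes, up to 3 called genes per direction and list, 8 genes named whatever their values (1 is not reported here), and the 3 genes most alike per SLCO gene. Slc22a30 and Abcc3, as part of small counts, and the motifs were chosen after values or sequences were seen. The members, lists, rules and settings were chosen with earlier results of these data known.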

Additional observations from a re-analysis of the deposited data

How the results depend on the processing

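The values of the 5 genes between the proximal tubule pools kept their direction and side of the threshold under 6 other settings each. These were a p threshold of 0.01, a minimum log2 fold change of 1, 2 pseudocounts or none, and subtraction of the median. Slco1a1 lay between -4.75 and -4.01 on the log2 scale. The pseudocounts and the subtraction leave the deposited p unchanged, so only the direction could change there. The 2 stricter thresholds could only remove calls, so genes not called could not become called. The list calls at the median level, 16, were 13 at p under 0.01, 17 with no minimum level, 11 at the 75th percentile and 16 after subtraction of the median. Of the 16, 8 were male-biased and 3 female-biased genes. Those lists were drawn up with these changes known, so that their calls persisted is not independent evidence. Of all genes at the median level, 3.3% were called. The highest cluster's lead over the second depended on the setting. Its ratio was 1.70 for Slco1a1, 1.04 for Slco1a6, 1.39 for Slco2a1, 1.24 for Slco3a1 and 1.91 for Slco4c1. Dividing the lower bound of the first by the upper bound of the second gave 1.32, 0.999818, 0.964, 1.18 and 1.54. This is a stricter reading than the ratio's own interval, which excluded 1 for Slco1a6 (1.01 to 1.07) and Slco2a1 (1.07 to 1.82). With total UMIs in place of averages, the same 2 clusters gave 9.48, 2.11, 2.02, 0.613 and 5.23, which follows from the sizes of the clusters. By total UMIs the first cluster became PT-S3-2 for Slco2a1, followed by PT-injury/repair, and PT-S2/S3 for Slco3a1. For Slco1a1, Slco1a6 and Slco4c1 the first cluster was unchanged. Without the 2 mixed clusters the lead for Slco2a1 was 1.04, EC1 over Podocyte. Of the 10 genes most alike per SLCO gene, Spearman correlation shared 0 for Slco1a1, 3 for Slco1a6, 3 for Slco2a1, 3 for Slco3a1 and 4 for Slco4c1. A pseudocount of 0.001 shared 5 for Slco1a1, a pseudocount of 0.1 shared 5 for Slco2a1 and 6 for Slco4c1, and leaving out the mixed clusters shared 6 for Slco1a1 and 5 for Slco2a1, and the cause was not tested. No paired analysis was possible because the columns carry no sample or replicate number, and for the same reason leaving out each replicate was not run. Depth limits the genes with few UMIs, and the spread between mice is not known.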
